A study of Mus musculus with 6 samples.

Results

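The transcription factors described here are Tox, Tox2, Nr4a1, Nr4a2, Nr4a3, Egr1, Egr2, Egr3 and Nfatc1, 9 genes read by 15 of the 55371 array probes used. Every probe whose RefSeq accession maps to one of the 9 symbols was taken, whatever its signal. The study measured gene expression on 6 single-colour Agilent mouse arrays. The cells were TEa cells, CD4+ T cells with a transgenic receptor (Vα2+Vβ6+) that recognises donor antigen, taken from C57BL/6 mice and marked by CD45.2. They were given to CD45.1+ congenic B6.SJL mice on day -1, and a Balb/c heart was transplanted on day 0. On day 6 the CD45.2+ TEa cells were sorted from the recipients' spleens.

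Each of the 3 groups has 2 arrays, from independent experiments. Wild-type TEa cells in recipients labelled as treated with rat IgG form the WT IgG group, for which the labels give no dose. Irf4-/- TEa cells in recipients injected with 400 µg rat IgG on days 0, 3 and 5 form the Irf4 KO IgG group. Irf4-/- TEa cells in recipients injected on the same days with 200 µg of an antibody to PD-L1 and 200 µg of an antibody to CTLA-4 (9D9) form the Irf4 KO blockade group. All recipients carried a heart graft, so no group shows these cells without donor antigen. The comparisons address how graft-reactive T cells differ without Irf4, and how checkpoint blockade alters cells labelled as lacking it.

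Nfatc1 encodes a transcription factor that calcineurin, a phosphatase switched on by calcium, sends to the nucleus after T cell receptor signalling. The Egr genes (zinc finger factors) and the Nr4a genes (orphan nuclear receptors) are immediate early genes, transcribed soon after the receptor is engaged. Tox and Tox2 encode high mobility group box factors that NFAT can induce, and persistent Tox and Nr4a expression is a known feature of exhausted T cells. Egr2 and Egr3 are known for their part in T cell anergy. Irf4 is itself induced by receptor signalling, in step with its strength.

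Arrays differed in ways that touch every value below. By the scanner software, between 34.8% and 40.8% of probes were well above background on the WT IgG and blockade arrays, against 65.8% and 75.2% on those of Irf4 KO IgG. Weak probes were thus brighter on the Irf4 KO IgG arrays in general. All 12 T cell identity genes were above background on all 6 arrays, with summed intensities from 258080 to 470176. Cd3e, a chain of the receptor complex, read from 28175 to 49031, and Cd4 from 9193 to 22895. Many markers of other cells had higher intensities in Irf4 KO IgG, and some did not. Summed intensities of 10 B cell markers were 227 and 232 in WT IgG, 1075 and 5290 in Irf4 KO IgG, and 386 and 398 with blockade, where 2 and 3, then 8 and 10, then 2 and 3 of them were above background. Those of 12 monocyte, macrophage and neutrophil markers were 4259 and 5193, then 8528 and 73072, then 4399 and 7430, and 0 of the 4 bright ones passed by limma. Among these, Csf1r and Itgam, named after their values were seen, differed by -0.01 and 0.29 between Irf4 KO IgG and WT IgG (limma adjusted p = 0.992 and 0.673). Lyz2, which marks myeloid cells, was not above background on the WT IgG and blockade arrays and was above it on both Irf4 KO IgG arrays. S100a8, a neutrophil gene, read 92.2 and 169 in WT IgG, 490 and 15377 in Irf4 KO IgG, and 185 and 1100 with blockade. The 8 erythroid and platelet markers summed to 189 and 765 in WT IgG, 1657 and 54799 in Irf4 KO IgG, and 11310 and 6959 with blockade. In the lists of 7 dendritic, 5 plasma, and 7 CD8 T and NK cell markers, 1 probe each was the largest part of the sum (Siglech, Xbp1 and Cd8b1, named after their values were seen). Counts above background show the others. Of the dendritic markers 1 was above background on each WT IgG and blockade array, and 4 and 5 in Irf4 KO IgG. Of the plasma cell markers 2 and 4 were in WT IgG, 4 and 5 in Irf4 KO IgG, and 2 and 4 with blockade. Of the CD8 T and NK cell markers 2 were on each WT IgG and blockade array, and 4 and 7 in Irf4 KO IgG. Sums over these lists ranged from 4782 to 23956, from 2046 to 5420 and from 699 to 1454. The part of these signals in the results below was not tested. In RNA from sorted cells, a gene expressed in fewer cells and a gene with less RNA per cell cannot be told apart.

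Irf4, the gene named in the genotype, read higher on the arrays labelled Irf4 KO. Its brighter probe had intensities of 673 and 1068 in WT IgG, 2128 and 3073 in Irf4 KO IgG, and 2071 and 1703 with blockade. Whether its probes lie inside the deletion is unknown, so they do not check the labels, and the groups are called by their labels throughout.

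A probe is called bright here if its mean log2 intensity over the 6 arrays was at least 8, an intensity of 256, and if it was well above background on both arrays of some group. The 10225 bright probes were quantile-normalised among themselves and fitted with limma, and a difference passed at a Benjamini-Hochberg adjusted p under 0.05. Of the 15 probes, 7 were bright, covering 6 genes (Tox, Nr4a1, Egr1, Egr2, Egr3 and Nfatc1). The other 8 were dim, and their unscaled intensities are given. Tox2, Nr4a2 and Nr4a3 had dim probes alone.

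**Figure D1:**
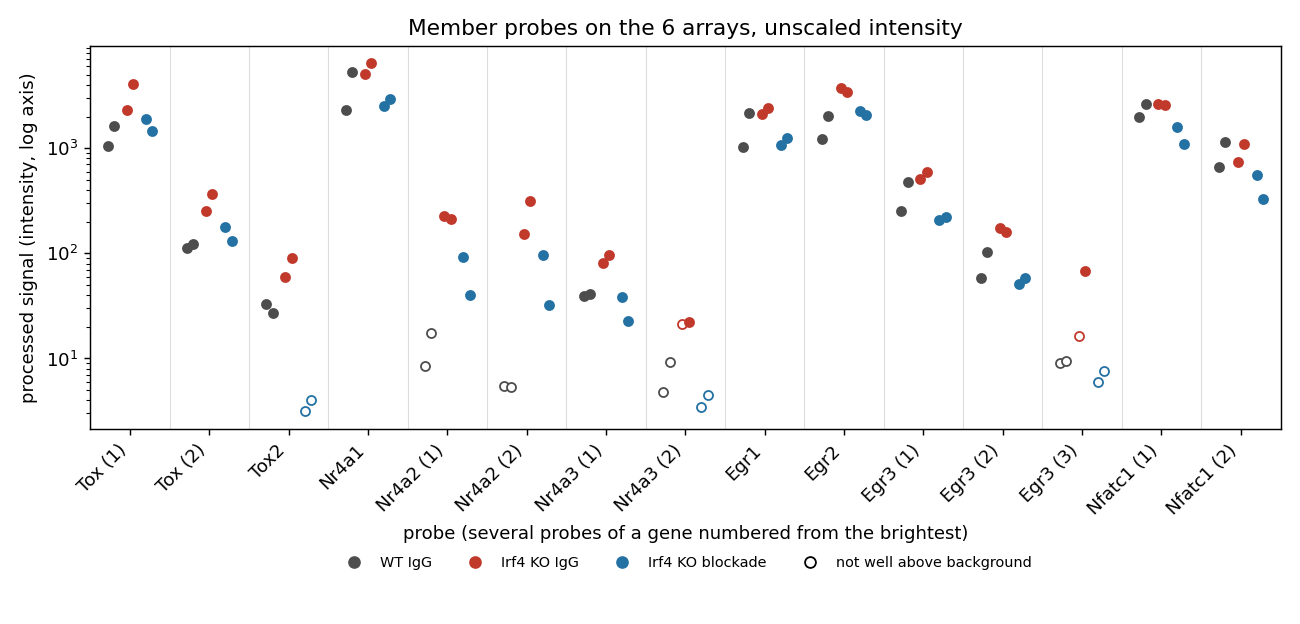
Unscaled processed signal (y axis, log scale, intensity units) of the 15 probes of the 9 genes, with 1 point for each array and the 3 groups side by side in each column. Open points were not well above background: both Nr4a2 probes are open on the WT IgG arrays and filled on the other 4, and Tox2 is open on the blockade arrays.

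Cells labelled Irf4 KO with IgG had more Tox than WT cells among bright probes, where blockade cells lay in between. The bright Tox probe (A_55_P2032659) read 1051 and 1634 on WT IgG arrays 1 and 2, 2318 and 4085 in Irf4 KO IgG, and 1911 and 1452 with blockade. The 3 groups did not overlap after normalisation, at mean log2 levels of 10.32 ± 0.15 (SD, n = 2), 11.43 ± 0.12 and 10.94 ± 0.037. Relative to WT IgG, Tox rose in Irf4 KO IgG by 1.11 on the log2 scale (SE 0.13, limma adjusted p = 0.0304), a 2.16-fold difference. It was the only one of the 7 bright probes to pass in this comparison, where 2.41% of the 10225 bright probes passed, 1.41% higher and 0.998% lower. Blockade minus Irf4 KO IgG gave -0.49 (limma adjusted p = 0.0986) and blockade minus WT IgG 0.62 (limma adjusted p = 0.101), neither of which passed. Before normalisation the blockade and WT IgG arrays overlapped. The rise had about the same size in both rows of the slide, 1.09 and 1.13. It passed in 9 of 18 other settings, with adjusted p from 0.0283 to 0.917. Leaving out any 1 array ended the call, at values between 0.996 and 1.21, and so did a fit of the 4 arrays compared (limma adjusted p = 0.103) and a replicate block (0.058).

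The dimmer Tox probe had the same order in unscaled intensity. It read 112 and 124 in WT IgG, 252 and 369 in Irf4 KO IgG, and 179 and 130 with blockade. Both Irf4 KO IgG arrays were thus above all 4 others before scaling, as weak probes were in general. What was made of this depended on the scale, since bright probes as a whole moved with it. Against each array's 75th percentile, the median bright probe was shifted by -1.04 in Irf4 KO IgG relative to WT IgG, and the Tox probes had 0.03 and 0.17 (limma adjusted p = 0.917 and 0.556). The order of the groups turned there: blockade was highest, at 4.37 against 3.70 in Irf4 KO IgG and 3.67 in WT IgG for the bright probe, and at 0.92 against 0.37 and 0.20 for the dimmer one (log2 relative to the percentile). On a scale set by the 17843 probes detected on all 6 arrays, chosen after seeing the data, the median of bright probes was -0.31 and the Tox probes rose by 0.76 and 0.90 (limma adjusted p = 0.0467 and 0.0284).

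Tox2 was above background in both IgG groups and not with blockade. Its probe (A_55_P2173825) read 33.0 and 26.9 on WT IgG arrays and 59.3 and 90.8 on Irf4 KO IgG arrays, all above background. On the blockade arrays it read 3.2 and 4.0, not well above background. Of 19434 probes above background on all 4 IgG arrays, 1.19% were dim on both blockade arrays, Tox2 among them. Those 19434 include bright probes, and Tox2 was not set against probes as weak as itself. Dim probes were fitted together with all 34988 probes above background on both arrays of some group, scaled to each array's 75th percentile. In that fit, Tox2 was at least 1.49-fold lower with blockade than in Irf4 KO IgG cells (limma adjusted p = 0.00837), and in the detected-probe fit at least 2.52-fold lower (limma adjusted p = 0.00314). These bounds set the brighter group's mean against the lowest signal still above background on the blockade arrays. Here and below, a p-value beside a bound comes from the fit of the measured signals, those near background included. It does not test the bound. The first fit called 56.7% of its probes in this comparison, 27.8% as higher and 28.8% as lower, and the second 41.7%, 4.17% as higher and 37.6% as lower, so passing is common there. The Tox2 probe entered these fits only through the IgG groups, where it is high, so passing adds little to the bounds. Over 10 other settings its measured difference between blockade and Irf4 KO IgG lay between -3.57 and -2.38 on the log2 scale.

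The comparison of blockade with WT IgG sets aside the levels of Irf4 KO IgG. Blockade cells were at least 1.39-fold lower than WT cells (limma adjusted p = 0.238), which did not pass. In this comparison 0 of 34988 probes passed by limma, and 7.99% had an unadjusted p under 0.05. Between Irf4 KO IgG and WT IgG, Tox2 differed by 0.10 (95% confidence interval -0.93 to 1.13) on the 75th percentile scale and by 0.83 (-0.18 to 1.83, limma adjusted p = 0.159) on the detected-probe scale, and neither passed. In measured values Tox and Tox2 stood differently on the blockade arrays, though neither difference from WT IgG passed. After normalisation Tox lay above both WT IgG arrays, which it overlapped before, and Tox2 was below them in unscaled intensity too.

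Nr4a2 was not well above background in WT cells and was above it in all 4 libraries labelled Irf4 KO. One probe (A_52_P494622) read 5.5 and 5.4 in WT IgG, 153 and 312 in Irf4 KO IgG, and 95.5 and 32.2 with blockade. The second (A_66_P118213) read 8.5 and 17.4, then 226 and 213, then 92.9 and 40.3. The probes, made to the same gene, gave the same order, with no overlap between WT IgG and either other group. Nr4a2 was at least 5.02-fold and 5.04-fold higher in Irf4 KO IgG than in WT IgG cells by its probes (limma adjusted p = 0.00586 and 0.00852). As for Tox2, these p-values test the measured signals and not the bounds. The probes entered the fit only through the groups in which they are high, so passing adds little to the bounds. On the detected-probe scale the bounds were 8.31-fold and 8.36-fold (limma adjusted p = 0.00253 and 0.00322). Over 10 other settings the adjusted p reached 0.0322 and 0.0402. The same fit called 56.3% of its probes, 29.4% as higher and 26.9% as lower, and the detected-probe fit 39%, 36.4% as higher and 2.64% as lower.

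Weak probes in general gained signal on the Irf4 KO IgG arrays, so the values of Nr4a2 are set beside them. Of 31515 probes not above background on either WT IgG array, 38.3% were above it on both arrays of Irf4 KO IgG, and 0.517% on both with blockade. Both Nr4a2 probes were in each of these sets. On the Irf4 KO IgG arrays, 3.03% and 1.41% of the 31515 probes were at least as bright as the Nr4a2 probes, judged by the dimmer array of the group. On the blockade arrays 0.175% and 0.111% were. The dimmest probes of Nr4a3 and Egr3, also among the 31515, did not stand out in this way on the Irf4 KO IgG arrays (37.7% and 44.3%). With blockade their shares were 53% and 7.61%. On the blockade arrays Nr4a2 was at least 3.73-fold and 4.12-fold higher than in WT IgG cells. That comparison had no probe past the threshold, and Nr4a2 did not pass either (limma adjusted p = 0.188 and 0.263).

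**Figure D2:**
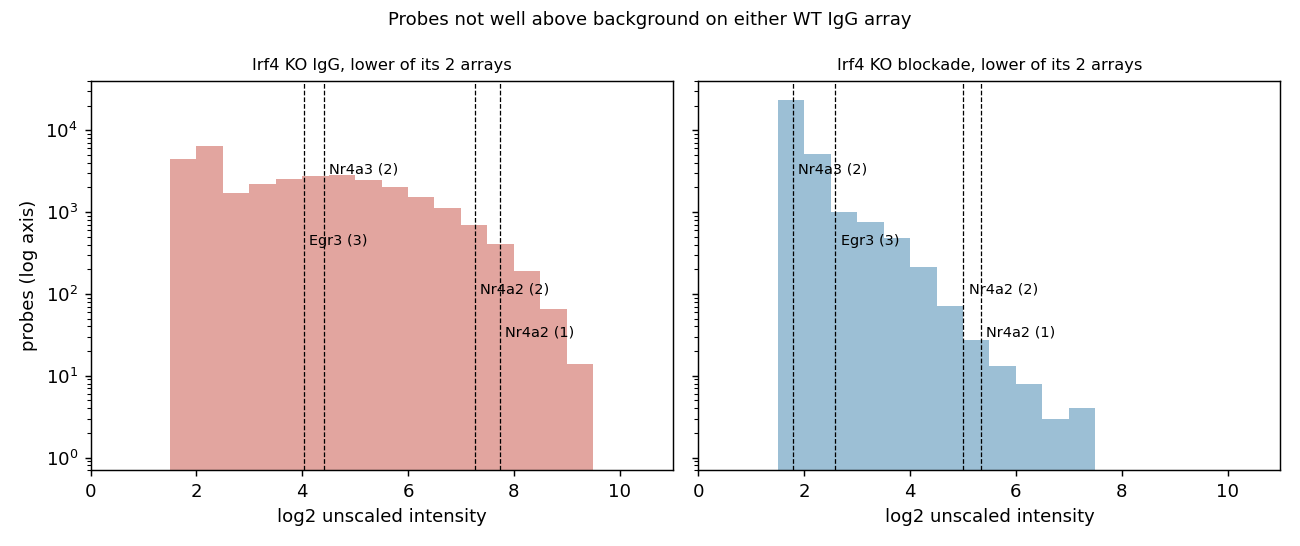
Histograms of the 31515 probes not well above background on either WT IgG array, by log2 unscaled intensity (x axis) on the dimmer array of the Irf4 KO IgG group (left) and of the blockade group (right), with the number of probes on a log y axis. Dashed lines mark the member probes in this set: the Nr4a2 probes lie in the upper tail of both panels, with 0.175% and 0.111% of probes at least as bright on the blockade arrays.

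Nr4a1, the family member also known as Nur77, was the brightest of the 15 probes and did not pass in any comparison. It read 2299 and 5307 in WT IgG, 5092 and 6412 in Irf4 KO IgG, and 2538 and 2960 with blockade. The WT IgG arrays differed from each other more than the arrays of either other group. Mean log2 levels were 11.69 ± 0.56, 12.39 ± 0.25 and 11.64 ± 0.37 (SD, n = 2 each). Irf4 KO IgG minus WT IgG was 0.70 (95% confidence interval -0.09 to 1.49, limma adjusted p = 0.257), and blockade minus Irf4 KO IgG was -0.75 (-1.54 to 0.03, limma adjusted p = 0.187). Blockade and WT IgG cells differed by -0.05 (-0.84 to 0.73).

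Nr4a3 was weak throughout. Its brighter probe read 39.0 and 41.3 in WT IgG, 81.7 and 97.4 in Irf4 KO IgG, and 38.3 and 22.7 with blockade. Both Irf4 KO IgG arrays were above the rest before scaling, as weak probes were in general, and no difference passed (fitted log2 fold changes between -0.10 and -0.05, where the detected-probe scale gave 0.68 between Irf4 KO IgG and WT IgG, limma adjusted p = 0.11). The second Nr4a3 probe was above background on 1 array, an Irf4 KO IgG array at 22.2, and was not fitted.

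The 3 Nr4a promoters share a feature that the array values did not use. The 300 bases from 250 before to 50 after the transcription start (RefSeq, GRCm38.p6) were searched on both strands for the cAMP response element TGACGTCA, AP-1 sites TGANTCA, EGR sites GCGTGGGCG, NFAT cores GGAAAA, the interferon response element and the CArG box. The reference holds promoters for 5 of the 9 genes (Nr4a1, Nr4a2, Nr4a3, Egr2 and Tox2). The Nr4a promoters held none of these 6 motifs. The half-site of the response element, TGACG, was searched after the sequences had been seen. It is part of the full element, and it occurred 4 times in each of the Nr4a promoters. At least 1 copy is found in 20.8% of the 32851 promoters searched and at least 4 in 0.231%. The sequences show where the half-sites lie. Capitals mark TGACG or its reverse complement CGTCA, and the stretches are the 250 bases before the start for Nr4a1 (chr15:101266596-101266845, plus strand) and Nr4a2 (chr2:57124004-57124253, minus strand), and 30 bases with 2 of its 4 half-sites for Nr4a3 (chr4:48045067-48045096, plus strand).
Nr4a1: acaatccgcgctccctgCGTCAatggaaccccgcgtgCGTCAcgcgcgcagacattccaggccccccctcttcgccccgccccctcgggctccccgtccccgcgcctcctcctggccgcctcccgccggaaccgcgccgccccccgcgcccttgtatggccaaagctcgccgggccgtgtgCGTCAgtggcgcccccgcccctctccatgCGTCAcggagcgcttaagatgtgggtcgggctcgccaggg
Nr4a2: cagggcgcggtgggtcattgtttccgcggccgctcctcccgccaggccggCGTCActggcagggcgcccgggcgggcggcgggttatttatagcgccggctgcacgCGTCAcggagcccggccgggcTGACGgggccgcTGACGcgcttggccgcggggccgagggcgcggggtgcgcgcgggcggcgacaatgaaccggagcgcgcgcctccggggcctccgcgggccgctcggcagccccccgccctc
Nr4a3: aggagggTGACGtagcgtcccatgtCGTCA
The Egr2 promoters held 2 half-sites at 3 of 5 annotated starts and a CArG box, found in 1.63% of promoters, at 4 of them. An NFAT core (23.4% of promoters) lay at 1 of the Egr2 starts. An earlier start of Tox2 had 1 half-site. The later start of Tox2 had 1 NFAT core (23.4% of promoters) and 1 interferon response element (3.44%), in a window shared by 2 annotated starts. A match is a description of the letters and does not show a site in use.

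Egr2 was the Egr gene with the largest differences from WT IgG among bright probes, and it did not pass. It read 1227 and 2035 in WT IgG, 3712 and 3399 in Irf4 KO IgG, and 2242 and 2060 with blockade. Both Irf4 KO IgG arrays were above both WT IgG arrays, and after normalisation the blockade arrays were above WT IgG too. Mean log2 levels were 10.58 ± 0.22, 11.66 ± 0.60 and 11.31 ± 0.15. Irf4 KO IgG minus WT IgG was 1.08 (95% confidence interval 0.35 to 1.80, limma adjusted p = 0.117). Blockade minus WT IgG was 0.73 (0.0013 to 1.45, limma adjusted p = 0.262). Blockade minus Irf4 KO IgG was -0.35 (-1.08 to 0.37, limma adjusted p = 0.455), a smaller change than in Egr1 and Egr3. On the 75th percentile scale, Irf4 KO IgG minus WT IgG was -0.032. The Irf4 KO IgG arrays disagreed in size: without array 2 of that group the difference was 1.52 and passed (limma adjusted p = 0.0475, in a range from 0.0475 to 0.946 over 18 settings), and without array 1 it was 0.67.

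Egr1 and Egr3 did not pass in any comparison. Egr1 read 1027 and 2165 in WT IgG, 2128 and 2411 in Irf4 KO IgG, and 1066 and 1242 with blockade. The bright Egr3 probe read 255 and 482 in WT IgG, 509 and 591 in Irf4 KO IgG, and 208 and 223 with blockade. In both genes 1 WT IgG array was near the Irf4 KO IgG arrays and the other near the blockade arrays. Irf4 KO IgG minus WT IgG was 0.46 for Egr1 (limma adjusted p = 0.42) and 0.27 for Egr3 (0.598). Blockade minus Irf4 KO IgG was -0.53 (95% confidence interval -1.30 to 0.24, limma adjusted p = 0.302) and -0.66 (-1.35 to 0.02, limma adjusted p = 0.184). A dimmer Egr3 probe read 58.2 and 104 in WT IgG, 176 and 161 in Irf4 KO IgG, and 51.1 and 58.3 with blockade. The third Egr3 probe was above background on 1 Irf4 KO IgG array (67.3) and was not fitted.

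Nfatc1 was lowest on the blockade arrays and did not pass in the bright-probe fit. Its brighter probe read 1995 and 2643 in WT IgG, 2636 and 2565 in Irf4 KO IgG, and 1599 and 1088 with blockade. Its second probe read 665 and 1154 in WT IgG, 738 and 1106 in Irf4 KO IgG, and 553 and 330.5 with blockade. By both probes, the blockade arrays lay below the other 4. Mean log2 levels of the brighter probe were 11.10 ± 0.0060, 11.17 ± 0.51 and 10.61 ± 0.15, and those of the second 9.76 ± 0.24, 9.51 ± 0.019 and 9.07 ± 0.24. Blockade minus WT IgG was -0.49 and -0.69 (limma adjusted p = 0.352 and 0.137), and blockade minus Irf4 KO IgG -0.56 and -0.44 (limma adjusted p = 0.203 and 0.173). Irf4 KO IgG minus WT IgG was 0.07 and -0.25, and the probes disagreed in sign. On the 75th percentile scale both passed as lower in that comparison, at -1.02 and -1.16 (limma adjusted p = 0.0397 and 0.0169), close to the shift of bright probes there (-1.04).

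**Figure D3:**
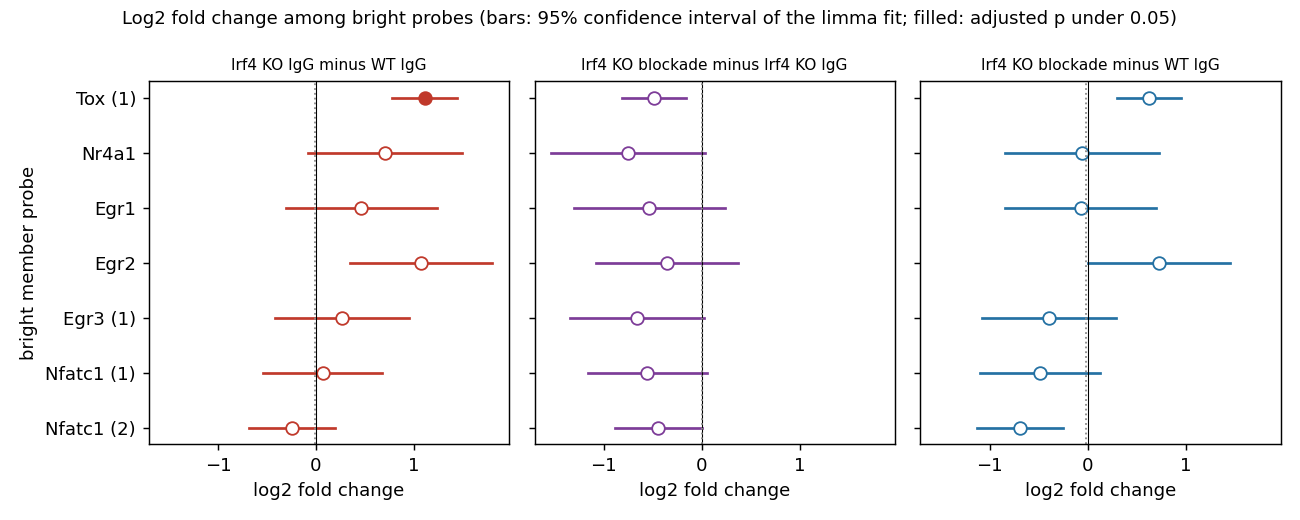
Log2 fold change (x axis) of the 7 bright probes in the 3 comparisons, 1 panel each, with 95% confidence intervals of the limma fit as bars, a solid line at 0 and a dotted line at the median of all bright genes. The filled point, Tox in Irf4 KO IgG minus WT IgG at 1.11, is the difference that passed; in the middle panel all 7 points lie below 0, and on the 75th percentile scale all 7 were above it.

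Set side by side, the 6 bright genes had a median of 0.58 on the log2 scale in Irf4 KO IgG minus WT IgG, with 6 of 6 above 0 (1 of 6 on the 75th percentile scale), where the median of all 6708 bright genes was -0.01. Between blockade and Irf4 KO IgG the median was -0.55, with 0 of 6 above 0 (6 of 6 on the 75th percentile scale), where all bright genes had -0.0023. These comparisons share the Irf4 KO IgG arrays, so a high value there moves both. Between blockade and WT IgG, which do not share them, the median was -0.06 and 2 of 6 were above 0 (all bright genes, -0.02). By groups that did not overlap, 3 of 7 probes were higher in Irf4 KO IgG than in WT IgG cells, where 23.2% of bright probes were, and 1 of 7 lower (29.2%). With blockade, 6 of 7 were lower than in Irf4 KO IgG cells, where 28.3% of bright probes were, and 0 of 7 higher (34%). Against WT IgG, 2 of 7 were higher with blockade (27.7%) and 2 of 7 lower (27.3%). In these comparisons with blockade 0 of 7 passed by limma. Of all bright probes 0.9% passed against Irf4 KO IgG, 0.44% higher and 0.46% lower, and 0.724% against WT IgG, 0.44% higher and 0.284% lower, and 2 and 3 of 7 had an unadjusted p under 0.05 (28.6% and 19% of bright probes did). Without Irf4 KO IgG array 2, which had the highest B cell, myeloid and erythroid marker sums, the medians were 0.81, -0.84 and -0.06. That alternative was chosen after seeing the data. Leaving out array 1 of that group instead made the differences of the Egr genes smaller. Irf4 KO IgG minus WT IgG was then 0.21 for Egr1, 0.67 for Egr2 and 0.05 for Egr3, and the brighter Nfatc1 probe turned negative. Blockade minus Irf4 KO IgG was then -0.29 for Egr1, 0.07 for Egr2 and -0.45 for Egr3. The T cell identity genes had medians of -0.03, -0.29 and -0.29, with 0 of 12 above 0 between blockade and Irf4 KO IgG.

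Across the 6 arrays, Nr4a1 and Egr1 were each other's nearest gene. Likeness is the Euclidean distance of log2 levels after subtracting each probe's mean, over 6 arrays and 6707 other bright genes. Their distance was 0.30, and Egr1 lay at 0.36 from Egr3 and Nr4a1 at 0.52 from Egr3. Tox was farther from Nr4a1 (0.97) and Egr1 (1.05) and nearest, among members, to Egr2 (0.76). Nfatc1 was 1.41 from Tox and 0.71 from Egr3. Among all genes, Tox was nearest to Vps37b (0.15), Mxd1 (0.21) and Mta1 (0.23), and Egr2 to Ugcg (0.32), Itga6 (0.35) and N4bp2 (0.47). After Egr1, Nr4a1 was nearest to Ccdc82 (0.37) and Plekhg2 (0.37), and Egr1, after Nr4a1, to Ephx1 (0.33) and Kpnb1 (0.35). Egr3 was nearest to Slc38a1 (0.23), Setd1b (0.24) and Polr2a (0.27), and Nfatc1 to Scoc (0.13) and Mllt3 (0.20). The points share arrays and their normalisation, and the distances describe these 6 libraries.

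Of all bright probes 2.41%, 0.9% and 0.724% passed in the 3 comparisons, and medians over all bright genes were -0.01, -0.0023 and -0.02, against which the lists of related genes are to be read. The relatives and cofactors of the 9 genes (other NFAT, TOX and EGR members, the Nab corepressors and the retinoid X receptors that pair with Nr4a proteins) had 6 of 11 with a probe bright. Of these 0 passed between Irf4 KO IgG and WT IgG by limma, as between blockade and Irf4 KO IgG, and 1 was lower between blockade and WT IgG. That was Nfatc2, the NFAT member prominent in resting T cells, which read 2936 and 5029 in WT IgG, 2011 and 2937 in Irf4 KO IgG, and 1335 and 1172 with blockade. Nfatc2 fell by 1.28 on the log2 scale between blockade and WT IgG (limma adjusted p = 0.0442), with no overlap between the groups, and was -0.75 in Irf4 KO IgG (limma adjusted p = 0.0774). Without Irf4 KO IgG array 2 the Nfatc2 call was lost, leaving 0 of 6. Nfatc1 and Nfatc2 both had their lowest values on the blockade arrays.

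In the calcineurin and calcium list, 17 of 23 genes were bright. Itpr1, a receptor that releases calcium from the endoplasmic reticulum, was lower than in WT IgG cells in both groups labelled Irf4 KO. It read 616 and 1017 in WT IgG, 403 and 645 in Irf4 KO IgG and 256 and 162 with blockade. The log2 fold changes were -0.99 (SE 0.14, limma adjusted p = 0.0393) and -1.58 (SE 0.14, limma adjusted p = 0.019). The other 16 genes of the list did not pass in these comparisons, and 0 of 17 passed between blockade and Irf4 KO IgG. Medians were 0.09, -0.27 and -0.27. Without Irf4 KO IgG array 2, 0 genes passed between Irf4 KO IgG and WT IgG by limma, and 2 were lower between blockade and WT IgG.

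Among genes linked to anergy and dysfunction, some of them known targets of NFAT, Egr or Nr4a factors, 12 of 19 with a probe were bright. Between Irf4 KO IgG and WT IgG 4 were higher and 0 lower, where 1.41% of all bright probes were higher and 0.998% lower. The median was 0.54, with 11 of 12 above 0, and that of all bright genes -0.01. Crtam, an adhesion molecule of activated T cells, read 71.7 and 71.8 in WT IgG, 537 and 763 in Irf4 KO IgG, and 763 and 495 with blockade. It rose by 2.42 (SE 0.19, limma adjusted p = 0.0148), and Ikzf2, which encodes Helios, by 2.19 (SE 0.24, limma adjusted p = 0.0239). Tnfrsf9, the costimulatory receptor 4-1BB, rose by 2.81 (limma adjusted p = 0.0398) and Nrp1, neuropilin, by 2.06 (limma adjusted p = 0.0468). Between blockade and WT IgG, Crtam (3.01, limma adjusted p = 0.0106) and Ikzf2 (2.35, limma adjusted p = 0.0246) were higher, and Tnfrsf9 (2.10, limma adjusted p = 0.082) and Nrp1 (limma adjusted p = 0.0601) did not pass. On both WT IgG arrays Crtam and Ikzf2 (113 and 147) were below the minimum intensity of 256, and Tnfrsf9 was on 1 (108 and 391). Crtam and Ikzf2 thus counted as bright only through the groups labelled Irf4 KO, where they are high. Their passing and the counts of higher genes are in part set by that rule. Between blockade and Irf4 KO IgG 0 of 12 passed, with a median of -0.23. Without Irf4 KO IgG array 2, 1 gene passed between Irf4 KO IgG and WT IgG in place of 4, at a median of 0.57.

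The list of immediate early genes and genes that respond to cell handling leaves out the 9 genes. Of its 23 genes 17 were bright, and their medians were 0.62 between Irf4 KO IgG and WT IgG (13 of 17 above 0), -0.62 between blockade and Irf4 KO IgG (1 of 17) and 0.03 between blockade and WT IgG (10 of 17). Dusp1, a phosphatase of MAP kinases, read 220 and 309 in WT IgG, 1703 and 3241 in Irf4 KO IgG, and 907 and 453 with blockade. It rose by 2.96 between Irf4 KO IgG and WT IgG (SE 0.22, limma adjusted p = 0.0148), and with blockade it was 1.58 above WT IgG (limma adjusted p = 0.0516). Nfkbia, the inhibitor of NF-κB, rose by 0.92 there (SE 0.11, limma adjusted p = 0.0304) and fell by 0.84 on the log2 scale between blockade and Irf4 KO IgG (SE 0.11, limma adjusted p = 0.0475). The other bright genes of the list did not pass in any comparison. Without Irf4 KO IgG array 2, 1 gene was higher in the first comparison and 1 lower in the second. How much of the values of the Egr and Nr4a genes follows handling during the sort was not tested.

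**Figure D4:**
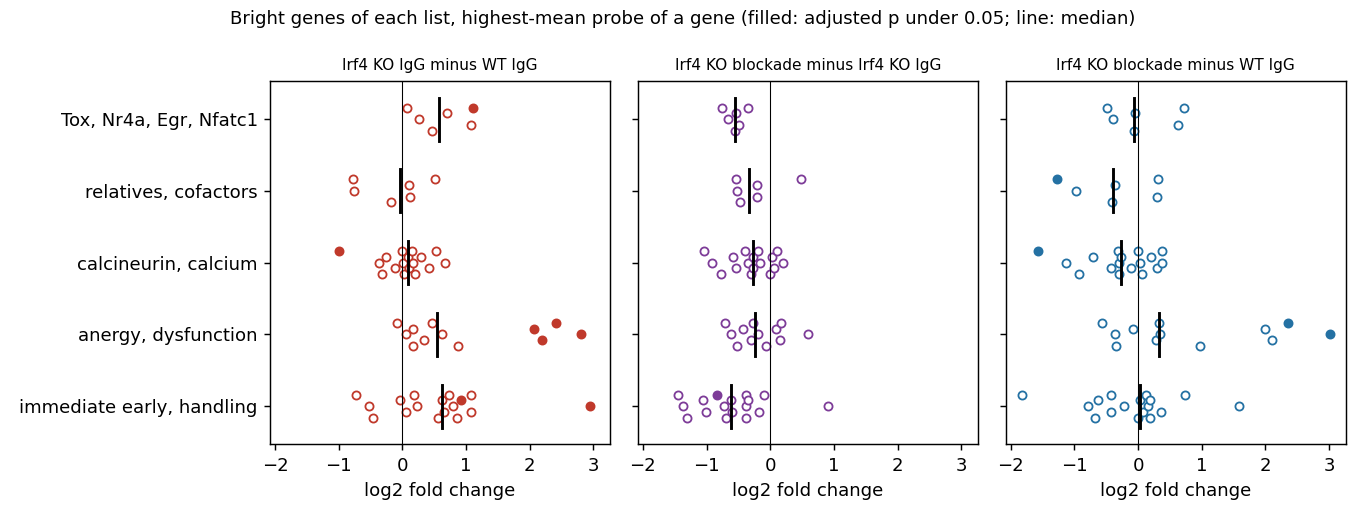
Log2 fold changes (x axis) in the bright-probe fit for the 6 bright members and the bright genes of 4 lists (rows), in the 3 comparisons (panels). Each point is 1 gene, filled points passed at a limma adjusted p under 0.05, and short vertical lines are medians, which for the members and the immediate early genes are 0.58 and 0.62 in the left panel and -0.55 and -0.62 in the middle one.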

How the data were processed

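Gene expression was measured in 6 samples, 2 for each of 3 groups, which the labels define. Per the labels' protocols, the authors hybridised Cy3-labelled cRNA made from the sorted cells. Per the file headers, the deposited intensity is a processed signal from Agilent Feature Extraction 11.0.1.1 (protocol GE1_1100_Jul11, grid build mm9), background-subtracted and not scaled between arrays. Version 9.1 is named in the submitters' processing notes. In the deposited value table each intensity is divided by 1 number per array, within a relative tolerance of 0.001, and its medians were between 0.0468 and 0.2. All arrays were on 1 slide and from 1 scan.

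Spots marked as outliers were dropped, 1234 of 56605 probes without a usable spot were left out, and log2 intensity was averaged per probe. RefSeq accessions named 58.3% of probes (22565 genes). Bright probes (mean log2 of at least 8) were quantile-normalised and fitted in 3 groups with limma 3.58.1 (lmFit and eBayes, R 4.3.3, residual degrees of freedom 3), and p-values were adjusted by Benjamini-Hochberg. Dim probes were fitted on the 75th percentile scale. The bright-probe fit was tested on simulated data, with changes larger than those of the bright members. The fits on the 75th percentile and detected-probe scales were not tested in this way. Precision is limited by 2 arrays a group, for which an exact permutation test cannot give a p below 0.333. Lists name the probe with the highest mean of a gene.

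The members, the lists, the bright-probe rule and the tests were chosen with earlier results of these data known. Named are all members, up to 4 genes per list and comparison that passed, cell markers, Irf4, and the 3 genes nearest to each bright member; a cell marker and a nearest gene that this rule names are not reported here. Alternatives were other scales, minimums of 7 and 9, normexp with an offset of 50, the value table, 1 probe per gene, 4 arrays, blocks and leaving out each array. The scale of detected probes, the settings for dim probes and the list counts without 1 array were added after seeing the data. No probe positions are given, since the file headers and the reference use different builds.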

Additional observations from a re-analysis of the deposited data

How the results depend on the processing

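The number of bright probes that passed was 246 for Irf4 KO IgG minus WT IgG, 92 for blockade minus Irf4 KO IgG and 74 for blockade minus WT IgG, and it moved with the scale and the model. In that order it was 7475, 7514 and 0 on the 75th percentile scale (43 higher and 7432 lower, then 7494 and 20), and 922, 1407 and 0 on the detected-probe scale (144 and 778, then 1286 and 121). Scaling to the median of bright probes gave 429, 939 and 148 (222 and 207, then 623 and 316). The first comparison had 90 with a minimum of 9, 161 with 1 probe per gene, 6 with the 4 arrays compared, 68 with a replicate block and 94 with the slide row as a block. The second had 27 with cyclic loess, 17 with a minimum of 9, 28 with 1 probe per gene, 0 with 4 arrays, 60 with a replicate block and 0 with the slide row. The third had 160 with cyclic loess, 124 with normexp, 122 with 4 arrays and 27 with the slide row. Leaving out 1 array gave 5 to 151, 0 to 405 and 0 to 128. Same-numbered arrays deviated with correlations of 0.0394, -0.179 and 0.0502, so the numbers were not taken to pair them.

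Of the 7 bright member probes, 1, 0 and 0 passed. Between Irf4 KO IgG and WT IgG, 0 passed with 4 arrays and 0 with a replicate block. The fits on the 75th percentile and detected-probe scales held 13 member probes. In that comparison 4 of 13 passed on each scale, where 56.3% and 39% of all probes did. On the first scale these were both Nr4a2 probes, higher, and both Nfatc1 probes, lower. On the second they were both Nr4a2 and both Tox probes, all higher. Between blockade and Irf4 KO IgG, 1 of 13 (Tox2) passed on each scale, where 56.7% and 41.7% of all probes did.

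Bright probes reversed most often on the 75th percentile scale. Between Irf4 KO IgG and WT IgG the values there were -0.60 for Egr1, -0.032 for Egr2, -0.55 for Egr3, -1.02 for the brighter Nfatc1 probe and -0.49 for Nr4a1. Between blockade and Irf4 KO IgG they were 0.57 for Egr1, 0.83 for Egr2, 0.21 for Egr3, 0.57 and 0.47 for Nfatc1, 0.49 for Nr4a1 and 0.67 for Tox, and between blockade and WT IgG 0.00029 for Nr4a1. The median shift of all bright probes on that scale was -1.04, 1.09 and 0.06 in the same order. The cause of these reversals and of the others was not tested. On the detected-probe scale Egr2 was 0.067 between blockade and Irf4 KO IgG, and the dimmer Tox probe -0.21. There the brighter Nfatc1 probe was -0.29 between Irf4 KO IgG and WT IgG, the dimmer Egr3 probe 0.64 and Nr4a3 0.68. The brighter Nfatc1 probe was -0.058 under median scaling and -0.034 under normexp.

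Leaving out 1 array turned other small differences. Between blockade and WT IgG, Egr1 was 0.20 without blockade array 1 and 0.25 without WT IgG array 2, Nr4a1 0.21 and 0.34, and the dimmer Egr3 probe 0.18 and 0.046; Nr4a3 was 0.035 without blockade array 2 and 0.077 without WT IgG array 1. Between blockade and Irf4 KO IgG, Egr2 was 0.071 without Irf4 KO IgG array 1, the dimmer Egr3 probe 0.34 and Nr4a3 0.17, and one Nr4a2 probe 0.10. Without blockade array 1 that Egr3 probe was 0.27, and without blockade array 2 the Nr4a2 probes were 0.11 and 0.063 and Nr4a3 0.083. Between Irf4 KO IgG and WT IgG, the brighter Nfatc1 probe was -0.30 without Irf4 KO IgG array 1, and Tox2 -0.26 without WT IgG array 2. Over the fits without 1 array, the bright probes that turned ranged from -0.39 to 0.25 for Egr1, -0.45 to 0.34 for Nr4a1, -0.78 to 0.071 for Egr2 and -0.30 to 0.44 for Nfatc1. Over all 18 settings the ranges in the same comparisons were wider for Egr2 (-0.78 to 0.83) and for the brighter Nfatc1 probe (-1.02 to 0.44). Without Irf4 KO IgG array 2, the dimmer Egr3 probe was 0.33 and Nr4a3 0.17; without a WT IgG array they were 0.12 and 0.12.

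In all, a case is 1 probe in 1 comparison under 1 other setting, and a difference that passed in neither fit counts as a call kept. Bright probes kept direction and call in 338 cases, reversed in 23, lost a call in 9 and gained one in 2. Dim probes kept them in 160, reversed in 19 and gained a call in 1. With 2 arrays a group, differences of the size seen for Nr4a1 or Egr1 were within the intervals, and probes near background have bounds only.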
